A study of Mus musculus with 39 samples.

Results

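Mouse 2-cell embryos that had received MGCD0103 were compared directly, gene by gene, with 2-cell embryos that had received T247. The comparison used 3 microarrays of each treatment, 6 of the 39 arrays of the series, chosen by the stage and treatment in their labels. No untreated array was part of the contrast, but untreated 1-cell, 2-cell and 4-cell arrays shared its filter, normalization and estimate of spread. Both agents are histone deacetylase inhibitors (HDACi). MGCD0103 acts mainly on the class I enzymes HDAC1, HDAC2 and HDAC3, and T247 was designed against HDAC3. The study asked how inhibition of class I HDACs during the zygote stage alters early development, and it also measured untreated oocytes and embryos from the germinal vesicle (GV) stage to the blastocyst. All embryos of the comparison came from oocytes of B6D2F1 females fertilized in vitro with sperm of ICR males. They were held in medium with 10 µM of 1 inhibitor for 6 h, from 4 h post insemination (hpi), then returned to inhibitor-free medium and collected at 24 hpi, with 100 embryos pooled for each array. The 1-cell embryos of both treatments were collected at 12 hpi and untreated 4-cell embryos at 48 hpi. MGCD0103 was not measured at the 4-cell stage, so the pair could be compared at 1 dose and at the 1-cell and 2-cell stages. The study reports that embryos given MGCD0103 did not develop beyond the later of these stages. For T247 it proposes a delay of development. The part of this arrest in the differences below was not tested. Per the study, the 3 arrays of a condition were independent samples.

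Histone deacetylases remove acetyl groups from lysines of histones and other proteins, and class I enzymes work inside corepressor complexes at promoters. The fertilized mouse egg starts with RNA stored by the oocyte. These maternal transcripts are degraded while the embryo begins its own transcription, in a minor wave in the zygote and a major wave of zygotic genome activation (ZGA) at the 2-cell stage. A 2-cell embryo therefore holds a falling maternal pool and a rising zygotic pool of RNA, and each array reports the sum of both in 100 embryos. A change in every embryo and a change in the share of embryos at a given point of development cannot be told apart in such pools.

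Between 71.5 and 76.7% of the probes gave a positive and significant signal on these 6 arrays, and between 52.5 and 57.4% were well above background. Pearson correlations over all genes tested were 0.993 to 0.994 within MGCD0103, 0.994 to 0.995 within T247 and 0.972 to 0.985 between the treatments. The 3 MGCD0103 arrays lay on 1 slide and the 3 T247 arrays on another, so slide and treatment cannot be told apart at the 2-cell stage. The arrays of each treatment at the 1-cell stage lay on the same slide as its 2-cell arrays. Among untreated 2-cell embryos, replicate 1 stood apart: many of its values lay closer to 1-cell embryos than those of replicates 2 and 3. Each result below that uses untreated 2-cell embryos is given with this in view.

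Of 15914 genes tested, 966 (6.07%) differed between the treatments (limma, Benjamini-Hochberg adjusted p under 0.05), had a log2 fold change (LFC, MGCD0103 minus T247) of 1 or more up or down, and are called differentially expressed genes (DEGs) here. Signal was higher with MGCD0103 for 534 DEGs (3.36% of genes tested) and lower for 432 (2.71%). The median LFC was 1.12 over the higher DEGs, 16 of which reached 2. It was -1.24 over the lower DEGs, 28 of which reached -2. The 3 arrays of one treatment did not overlap the 3 of the other for 515 of the 534 and 429 of the 432, against 68.5% of all genes tested. This normalization gives the replicates of a condition the same overall distribution, and it placed the median LFC of all genes at 0.24. Quantile normalization placed that median at 0.07 and scaling to the 75th percentile at 0.11. The split of calls moved with the scaling, from 55.3% of DEGs higher with MGCD0103 here to 29.4% (341 higher, 818 lower) with quantile normalization and 24.5% (198 higher, 609 lower) with the 75th percentile. Of the 966 DEGs, 732 were called in the same direction under quantile normalization and 629 under 75th-percentile scaling, and 0 were called in the opposite direction. With normexp background correction 280 genes were called, 264 of them among the 966. When the untreated 2-cell arrays were left out of the fit 1079 genes were called, 950 of them among the 966. Without T247 replicate 1 the higher DEGs numbered 355, and without MGCD0103 replicate 1 the lower DEGs numbered 269.

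The largest differences toward higher signal with MGCD0103, among genes well above background on all 6 arrays, included genes for enzymes, motors and transcription factors. Atp6ap1l, a relative of a proton pump accessory subunit, had log2 signals of 7.88, 8.51 and 8.02 with MGCD0103 and of 4.76, 4.72 and 4.64 with T247. The groups lay far apart, with an LFC of 3.43 (SE 0.77, adjusted p = 0.00271), or 10.8-fold. Untreated 2-cell embryos read 8.26, 5.38 and 4.93 for Atp6ap1l, so replicate 1 matched the MGCD0103 level and the other two were nearer to T247. Gcnt2, which encodes the enzyme that branches poly-N-acetyllactosamine chains, gave 10.04, 10.18 and 10.21 with MGCD0103 against 7.63, 7.64 and 7.43 with T247, an LFC of 2.58 (SE 0.52, adjusted p = 0.00116). All 3 MGCD0103 values of Gcnt2 were above all 3 T247 values, but a second probe of the gene gave an LFC of -1.18, so its probes disagree. Untreated replicate 1 was at the T247 level for Gcnt2, at 7.59, and replicates 2 and 3 read 10.92 and 10.58.

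Klk1b24 and Klk1b3 belong to the cluster of tissue kallikrein genes, secreted serine proteases that are near-identical in sequence, so signals of single members are uncertain. Klk1b24 gave 7.12, 7.35 and 7.18 with MGCD0103 and 5.75, 4.34 and 5.34 with T247, an LFC of 2.07 (SE 0.30, adjusted p = 9.84e-05). Here the T247 arrays were the ones that stood away from untreated embryos, which read 7.91, 7.43 and 7.24. Klk1b3 gave 6.73, 6.56 and 6.30 against 4.48, 4.57 and 4.99, and again no MGCD0103 array overlapped a T247 array.

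Egr2 and Arc are immediate early genes, which many cell types switch on within a short time of a stimulus. Egr2, a zinc finger transcription factor, gave 6.76, 6.44 and 6.91 with MGCD0103, 4.56, 5.49 and 5.35 with T247 and 2.67, 3.20 and 3.03 in untreated embryos, where the probe was not well above background. Both inhibitors were above control for Egr2, and MGCD0103 was above T247 by an LFC of 1.57 (SE 0.36, adjusted p = 0.00303). Arc, a regulator of synaptic plasticity in neurons, gave 7.16, 7.50 and 7.83 against 5.27, 6.19 and 6.36. Its adjusted p no longer passed without MGCD0103 replicate 3 (LFC 1.33) or without T247 replicate 1 (LFC 1.21). Kif11, the kinesin that slides spindle microtubules apart, gave 7.25, 6.94 and 6.74 against 5.26, 5.64 and 5.37, an LFC of 1.55.

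For Kif9, Macroh2a1 and Ube2d1 the size of the difference rested on 1 array. Kif9, a kinesin, gave 6.35, 8.71 and 6.10 with MGCD0103 against 5.47, 5.61 and 5.24 with T247. Macroh2a1, a histone variant with a large non-histone domain, gave 6.52, 8.55 and 6.26 against 5.70, 5.66 and 5.18. Ube2d1, a ubiquitin-conjugating enzyme, gave 5.88, 7.66 and 5.56 against 4.58, 5.002 and 4.85. In each case MGCD0103 replicate 2 was about 2 log2 units above its companions, and without it the LFC was 0.82 for Kif9, 0.91 for Macroh2a1 and 0.95 for Ube2d1, none of which passed. Ube2d1 also failed without T247 replicate 1 or 2. The remaining members of the 12 largest were Fam47e (LFC 1.58) and Noto (LFC 1.56), a homeobox gene of the notochord.

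In the opposite direction Itln1, which encodes intelectin 1, a lectin that binds microbial sugars, had the largest difference. Its log2 signal was 5.76, 5.03 and 5.59 with MGCD0103 and 10.83, 10.90 and 10.89 with T247. The LFC was -5.42 (SE 0.90, adjusted p = 0.00025), or 42.7-fold, and the other probes of Itln1 gave -5.86 and -6.11. Untreated replicates 2 and 3 read 11.59 and 11.47 and replicate 1 read 5.94, so every 2-cell array was near one of these levels and none lay between them. Lrrc4b, a leucine-rich repeat adhesion protein of synapses, gave 5.51, 5.25 and 5.04 with MGCD0103 and 8.93, 8.73 and 8.93 with T247, an LFC of -3.60 (SE 0.34, adjusted p = 3.06e-06). Untreated embryos read 7.39, 7.88 and 8.05, between the treatments, and Lrrc4b was the 1 DEG of the 966 that was below control with MGCD0103 (LFC -2.51) and above control with T247 (LFC 1.09). A second probe gave -3.68. Its signal also varied at other untreated stages, with an SD of 3.26 over the 3 control 4-cell arrays on the 75th-percentile scale.

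Several of the lower genes encode membrane and metabolic proteins. Slc2a8 and Slc2a4, both glucose transporters, gave LFCs of -2.32 and -2.15. Slc2a8 read 7.54, 7.79 and 8.30 with MGCD0103 against 10.36, 10.09 and 10.16 with T247. Slc2a4 read 4.14, 4.60 and 4.52 against 6.61, 6.63 and 6.47. Its call was lost when any array other than MGCD0103 replicate 3 was left out, with LFCs of -1.97 to -2.28 over all 6 omissions. The adjusted p of Slc2a4 rests on a spread shared with untreated arrays. On the 75th-percentile scale the SD of Slc2a4 was 2.43 in untreated 2-cell embryos, 0.07 with T247 and 0.25 with MGCD0103. Pheta1, an adaptor of endosomal traffic, gave 6.69, 7.55 and 7.83 against 10.21, 9.82 and 9.93. Untreated replicates 2 and 3 read 13.62 and 13.52 for Pheta1, above both treatments, and replicate 1 read 8.94, between them. Pheta1 and Mfsd12, a lysosomal membrane protein, lost their calls without MGCD0103 replicate 1, at LFCs of -2.27 and -1.87. Chst5, a sulfotransferase, had an LFC of -2.73 and lost its call without MGCD0103 replicate 1 or 2 or T247 replicate 1. Its SD on the 75th-percentile scale was 2.5 in untreated 2-cell embryos, 0.16 with T247 and 0.26 with MGCD0103.

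Itpka, a kinase of inositol trisphosphate, gave 5.94, 6.38 and 6.22 with MGCD0103 and 8.59, 7.78 and 8.30 with T247, with an LFC of -2.04 (adjusted p = 7.89e-05). Untreated embryos read 4.96, 5.66 and 5.79 for Itpka, and the signal with T247 was above control (LFC 2.75, adjusted p = 2.6e-07). The others of the 12 were Pth2, a neuropeptide (LFC -2.45), Sppl3, an intramembrane protease (-2.44), Ggt6 (-2.41) and Adgrv1, a very large adhesion receptor (-2.18). Second probes gave an LFC of -0.80 for Sppl3, 0.53 for Ggt6 and 1.54 for Mfsd12, so the probes of Ggt6 and Mfsd12 disagree in sign. Of the 24 genes, 7 (29.2%) had an SD above 1 between the replicates of at least 1 untreated stage other than the 2-cell stage, against 9% of all genes tested and 10.2% of the DEGs.

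**Figure D1:**
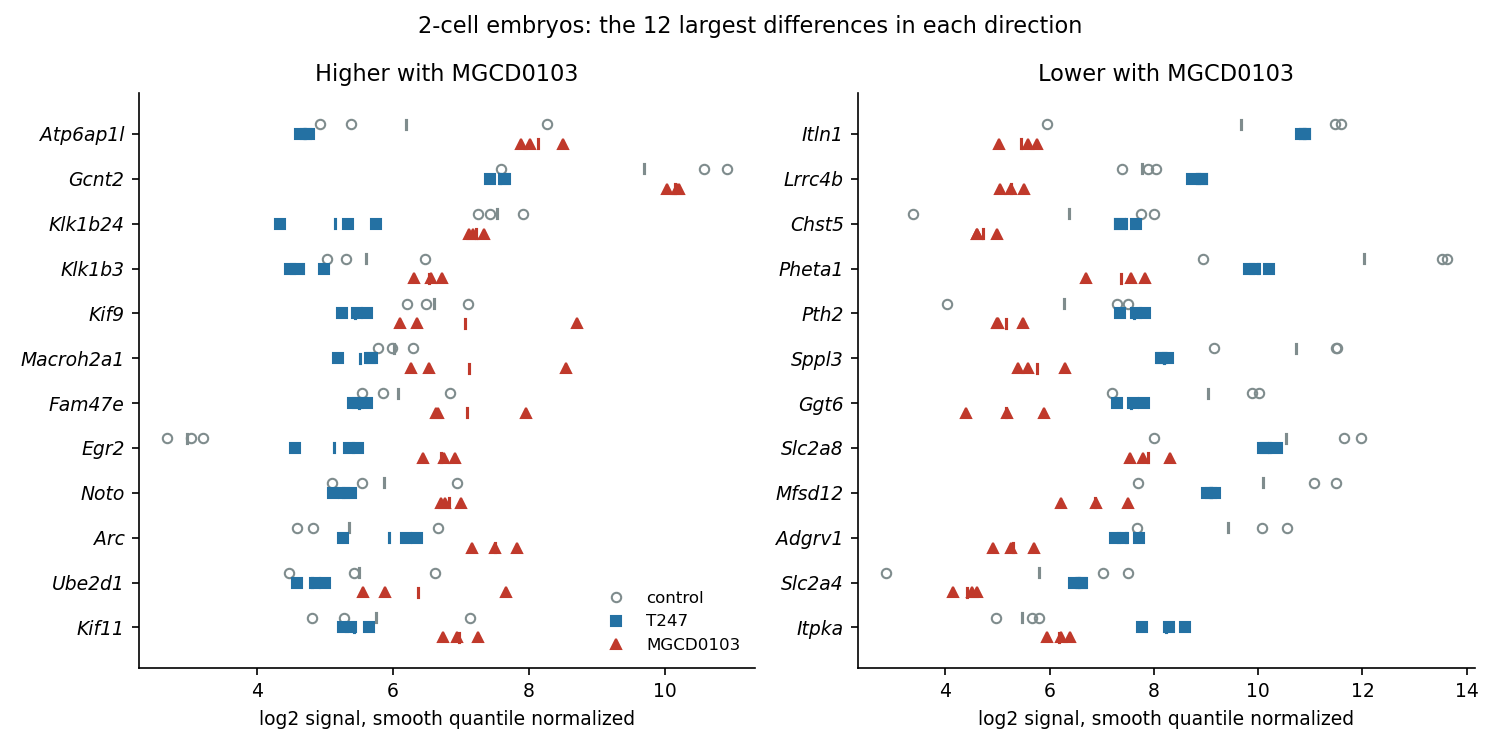
Log2 signal (smooth quantile normalized, horizontal axis) of the 12 genes with the largest difference in each direction in 2-cell embryos, with 1 point per array for MGCD0103, T247 and untreated control (open symbols). The genes were chosen without overlap between MGCD0103 and T247 points, and 1 MGCD0103 array stands about 2 units above the other MGCD0103 arrays for Kif9, Macroh2a1 and Ube2d1.

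The 250 bases before the annotated start of the genes that led each direction are printed here, 5′ to 3′ on the strand of the gene, because these genes had the largest differences among those with an entry in the promoter table. They are RefSeq sequences on build GRCm38.p6. Gcnt2 (chr13:40859518-40859767, plus strand) and Klk1b24 (chr7:44187986-44188235, plus strand) were higher with MGCD0103, and Itln1 (chr1:171535295-171535544, minus strand) and Lrrc4b (chr7:44442237-44442486, plus strand) were lower. Capitals mark CCAAT, the core that the nuclear factor Y complex binds. The letters CCAAT, those of a GC box that Sp proteins bind (GGGCGG) and those of a TATA motif (TATAAA) were searched on both strands, and Klk1b24 held 1 CCAAT, while none of the other windows held any of the 3.
Gcnt2: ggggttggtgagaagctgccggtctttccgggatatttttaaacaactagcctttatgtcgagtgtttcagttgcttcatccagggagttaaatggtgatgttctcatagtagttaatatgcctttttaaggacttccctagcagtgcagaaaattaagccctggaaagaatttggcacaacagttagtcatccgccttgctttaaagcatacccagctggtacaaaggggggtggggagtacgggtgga
Klk1b24: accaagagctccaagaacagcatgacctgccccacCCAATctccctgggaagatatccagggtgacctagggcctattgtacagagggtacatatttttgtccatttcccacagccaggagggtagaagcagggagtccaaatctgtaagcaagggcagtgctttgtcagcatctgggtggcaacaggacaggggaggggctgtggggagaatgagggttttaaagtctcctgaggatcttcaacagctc
Itln1: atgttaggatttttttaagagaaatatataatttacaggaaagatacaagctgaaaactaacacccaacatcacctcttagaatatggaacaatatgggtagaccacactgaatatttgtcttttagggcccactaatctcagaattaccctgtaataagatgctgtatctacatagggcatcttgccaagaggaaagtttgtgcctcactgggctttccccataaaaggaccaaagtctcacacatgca
Lrrc4b: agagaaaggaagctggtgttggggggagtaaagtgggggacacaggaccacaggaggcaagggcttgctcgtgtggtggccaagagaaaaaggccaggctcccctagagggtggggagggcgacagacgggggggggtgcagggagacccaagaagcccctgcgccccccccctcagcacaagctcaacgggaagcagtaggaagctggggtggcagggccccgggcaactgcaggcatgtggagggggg
Over all 32851 promoters of the table, 33.8% held CCAAT, 32.7% GGGCGG and 12.4% TATAAA. Of the genes tested 12505 matched the table, and of these 36.6% held CCAAT and 51.9% GGGCGG. Among the higher DEGs the shares were 35.6% and 42.7% of 419 promoters, and among the lower DEGs 30.5% and 54.8% of 341. Median GC content was 58.4% for all genes tested, 56% for the higher DEGs and 58% for the lower DEGs. A match of letters is a description of the window and not a binding site.

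The DEGs followed the course of untreated development. That course was read from untreated 1-cell and 4-cell arrays. These were not part of the contrast of the inhibitors but shared its filter, normalization and estimate of spread. From the 1-cell to the 4-cell stage 6939 genes (43.6%) fell and 4261 (26.8%) rose in untreated embryos. Of the 534 genes higher with MGCD0103, 380 (71.2%) were among those that fell and 35 (6.55%) among those that rose. Of the 432 genes lower with MGCD0103, 353 (81.7%) were among those that rose and 11 (2.55%) among those that fell. With quantile normalization the falling share of the higher genes was 64.5% and the rising share of the lower genes 87.2%, and with 75th-percentile scaling these shares were 56.6% and 86.9%.

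The size of the difference was graded with the untreated course. The 514 genes that lost at least 6 log2 units between untreated 1-cell and 4-cell embryos had a median LFC of 0.71, and 83 of them were higher DEGs and 0 lower DEGs. The 375 genes that gained over 6 units had a median LFC of -0.68, and 94 of them were lower DEGs and 0 higher DEGs. Between these ends the medians descended in order over the 10 bins of the untreated course, and the order was the same under the other scalings. At the 1-cell stage the same end bins had medians of 0.13 and -0.06. Within each treatment, the lower DEGs gained a median of 0.69 between the 1-cell and 2-cell stages with MGCD0103 and of 2.12 with T247. The higher DEGs lost a median of 1.53 with MGCD0103 and of 2.50 with T247. Both sets were chosen by their 2-cell difference, and their median 1-cell LFCs were 0.04 (lower DEGs) and 0.13 (higher DEGs). The direction of these contrasts thus follows from the choice.

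**Figure D2:**
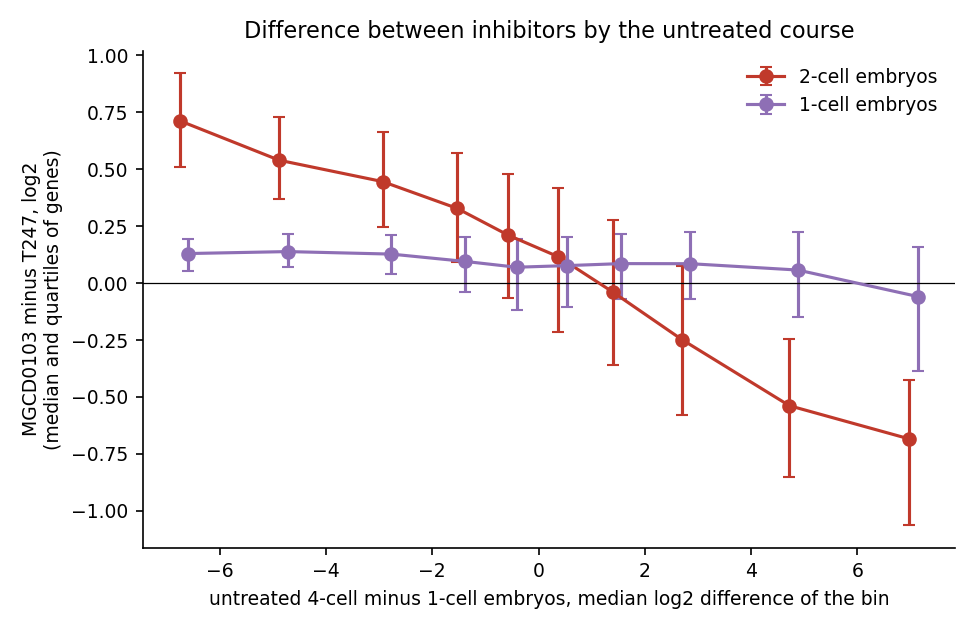
Difference between the inhibitors (MGCD0103 minus T247, log2, vertical axis; points are medians and bars quartiles over genes) for genes binned by their change from untreated 1-cell to 4-cell embryos (log2, horizontal axis), at the 1-cell and the 2-cell stage. The 2-cell medians descend from 0.71 in genes that fell most to -0.68 in genes that rose most, and the 1-cell medians stay between -0.06 and 0.14.

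The highest untreated stage of each gene, by its mean over the 3 arrays of a stage, is given next, and the 2-cell mean includes replicate 1. Of the higher DEGs, 31.8% had their highest untreated level in GV oocytes, 23.2% in MII oocytes and 14.6% in 1-cell embryos, against 12.8, 24.5 and 7.65% of all genes tested, so the share for MII oocytes was not above that of all genes. Of the lower DEGs, 16.4% were highest in untreated 2-cell embryos, 30.3% in 4-cell and 16.7% in 8-cell embryos, against 8.49, 12.3 and 11.5% of all genes. The lower DEGs were short genes, with a median length of 12280 bases against 20357 for all genes tested and 22728 for the higher DEGs. Genes that rose in untreated embryos had a median length of 13935 and genes that fell one of 29112.

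The position of an array on the line from untreated 1-cell (0) to untreated 4-cell embryos (1), over all genes, was 0.296, 0.309 and 0.319 with MGCD0103 and 0.436, 0.417 and 0.418 with T247. The means differed by -0.116 (two-sided exact permutation test, p = 0.1, the smallest that 3 against 3 arrays allow). At the 1-cell stage the means were 0.0033 ± 0.000873 (SD, n = 3) and 0.0217 ± 0.0015 (SD, n = 3), a difference of -0.0184 with the same smallest exact p = 0.1. Untreated 2-cell replicate 1 was at 0.325, next to the MGCD0103 arrays, and replicates 2 and 3 at 0.520 and 0.493.

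Maternal oocyte genes, which encode the oocyte coat, the subcortical maternal complex and regulators of stored RNA, were largely on the side of MGCD0103. Of 65 such genes tested, 14 (21.5%) were higher DEGs and 0 were lower, beside 3.36% and 2.71% of all genes. Their median LFC was 0.63, which is 0.39 above that of all genes, and 56 of the 65 lay above the median of all genes. The mean log2 signal of the list was 12.94, 12.88 and 12.86 with MGCD0103, 12.23, 12.30 and 12.29 with T247, and 12.86, 12.19 and 12.30 in untreated embryos. The MGCD0103 arrays and untreated replicate 1 thus formed a higher level, and T247 with untreated replicates 2 and 3 a lower one. Many of the calls were close to the limit of 1: after quantile normalization 1 member passed and after 75th-percentile scaling 2, while the median stayed 0.27 and 0.39 above that of all genes. At the 1-cell stage the median LFC of the list was 0.09 and 0 members passed in limma, with 4 at an unadjusted p below 0.05.

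The maternal gene that differed most was Pabpc1l, the poly(A)-binding protein of oocytes, with 12.37, 12.16 and 11.91 under MGCD0103 and 10.53, 10.78 and 10.80 under T247 (LFC 1.44, adjusted p = 0.00401). Zar1, an RNA-binding protein needed for the oocyte-to-embryo transition, gave 12.77, 12.63 and 12.55 against 11.44, 11.55 and 11.49 (LFC 1.16, adjusted p = 4.06e-05). For Zar1 untreated embryos read 12.90, 13.45 and 13.73, above both treatments. Oas1d and Oas1e, oocyte members of the oligoadenylate synthetase family whose probes may share signal with their paralogs, had LFCs of 1.13 and 1.10. Npm2, the histone chaperone of the oocyte (1.10), Dazl, an RNA-binding protein of germ cells (1.01), and Nobox (1.05) and Lhx8 (1.03), oocyte transcription factors, were also DEGs, as were Nlrp4f, Nlrp4a, Nlrp9b, Kpna7, Oosp3 and Oas1c.

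The 51 genes of mRNA decay and maternal clearance had a median LFC of 0.39, or 0.15 above that of all genes. Of them 6 (11.8%) were higher with MGCD0103 and 1 (1.96%) lower, beside 3.36% and 2.71% of all genes. This imbalance did not hold under the other scalings, which called 3 higher and 3 lower (quantile) and 2 higher and 2 lower (75th percentile). Xrn2, a nuclear exoribonuclease, gave 10.60, 10.29 and 10.15 against 9.04, 9.22 and 9.20 (LFC 1.20), and the deadenylase subunits Cnot3 and Cnot11 had LFCs of 1.18 and 1.12. A second probe of Cnot11 gave -0.66. Zfp36, which directs mRNAs with AU-rich elements to decay, was lower (LFC -1.30) and was well above background on 1 of the 3 MGCD0103 arrays.

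Cytosolic ribosomal protein genes lay on the side of T247. Of 87 tested, 1 (1.15%) was a lower DEG and 0 were higher, beside 2.71% and 3.36% of all genes. However, 79 lay below the median of all genes, and the median LFC was -0.30, or 0.54 below that of all genes. The mean log2 signal of the list was 11.78, 11.82 and 11.88 with MGCD0103, 12.15, 12.03 and 12.03 with T247, and 12.81, 13.66 and 13.59 in untreated embryos. Both treatments were below all 3 untreated arrays, and MGCD0103 was the lowest. The DEG was Rpl10l, a retrogene copy of Rpl10, with 8.51, 8.40 and 8.72 against 9.79, 9.59 and 9.53 (LFC -1.09, adjusted p = 0.00399).

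**Figure D3:**
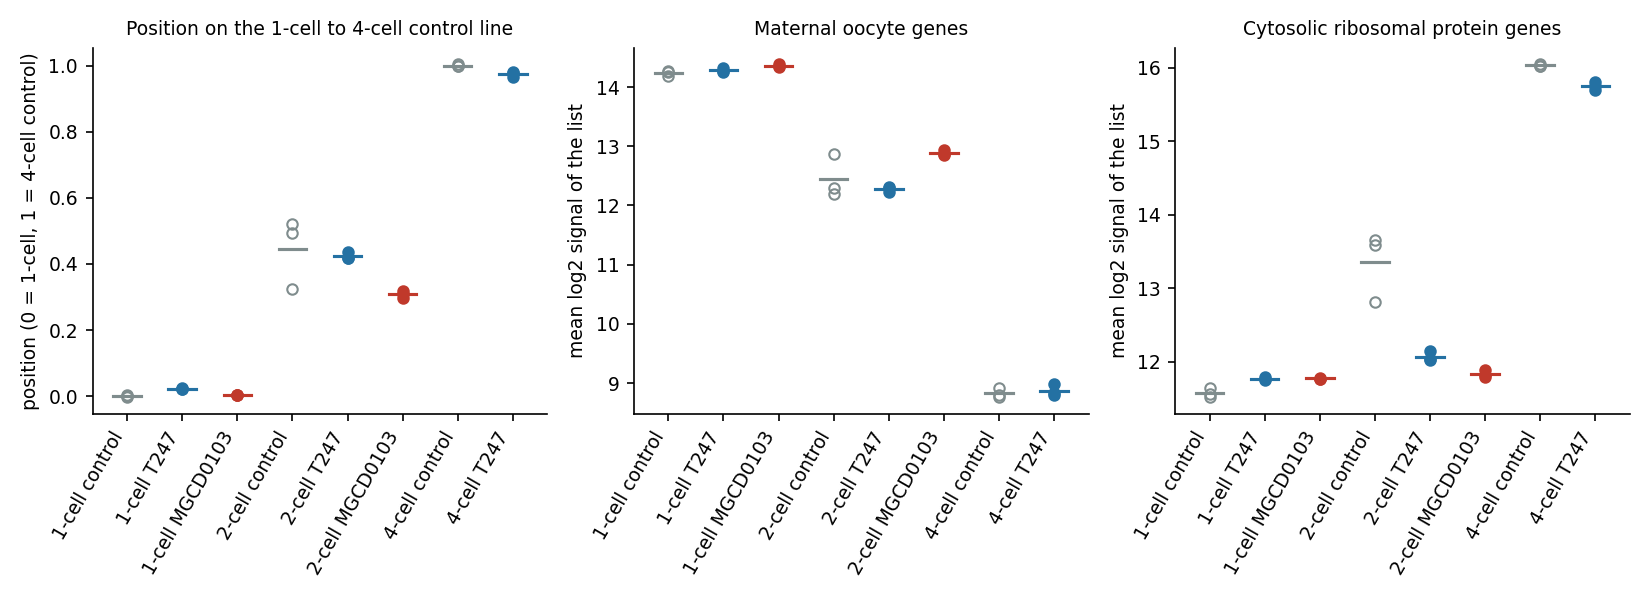
Value of each array (points) and mean of each condition (lines), from 1-cell to 4-cell embryos, for the position on the line between untreated 1-cell and 4-cell embryos, and for the mean log2 signal of maternal oocyte genes and of cytosolic ribosomal protein genes. At the 2-cell stage the MGCD0103 arrays have a lower position and higher maternal signal than the T247 arrays, and 1 untreated array lies beside the MGCD0103 arrays in the first 2 panels.

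Of 113 ribosome biogenesis genes, 7 (6.19%) were lower with MGCD0103 and 2 (1.77%) higher, beside 2.71% and 3.36% of all genes. Their median LFC was -0.06, or 0.30 below that of all genes. Nop2, an rRNA methyltransferase, gave 9.93, 10.23 and 10.14 with MGCD0103 and 11.60, 11.22 and 11.23 with T247 (LFC -1.25, adjusted p = 0.00105), and untreated embryos read 12.64, 14.06 and 13.92. Bop1 (LFC -1.32) and Rrp12 (-1.20), factors of large and small subunit maturation, Fbl (-1.04), the methyltransferase of box C/D particles, and Taf1c (-1.05), a subunit of the RNA polymerase I selectivity factor, were also lower. Nol11 (-1.04) and Surf6 (-1.004) were the other lower members. Rrp8 (1.07) and Pelp1 (1.02) were higher.

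Of 26 genes tested from a list of H2 symbols and peptide loading genes, 5 (19.2%) were lower with MGCD0103 and 1 (3.85%) was higher. Over all genes the shares were 2.71% and 3.36%. The 26 genes had a median LFC of -0.31 (0.55 below that of all genes). Their mean log2 signal was 7.64, 7.79 and 7.92 with MGCD0103 and 8.20, 8.18 and 8.07 with T247, without overlap. H2-Q8 gave 8.70, 8.96 and 9.28 with MGCD0103 and 10.29, 10.10 and 10.16 with T247, and the T247 arrays were at the untreated level of 10.33, 10.30 and 10.14. H2-Q3 (LFC -1.62, well above background on 1 MGCD0103 array), H2-M11 (-1.45) and H2-Q10 (-1.13) were the other H2 genes, and their probes may share signal with paralogs. Psmb10, a subunit of the immunoproteasome, gave 5.27, 5.38 and 5.94 against 7.45, 6.75 and 6.67 (LFC -1.43, adjusted p = 0.00132). H2-Ke6, a dehydrogenase gene that lies in the H2 region, was higher (1.07).

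Marker genes of the 2-cell stage, which are transcribed during ZGA, held few DEGs. Of 38 tested, 2 (5.26%) were higher with MGCD0103 and 1 (2.63%) was lower, beside 3.36% and 2.71% of all genes. The median LFC was -0.23, which is 0.48 below that of all genes, and 27 of the 38 lay below the median of all genes. After quantile normalization 5 were lower and 0 higher. The mean log2 signal of the list was 12.15, 12.18 and 12.20 with MGCD0103 and 12.26, 12.23 and 12.22 with T247, so the groups did not overlap but lay close together. All 43 of the listed markers on the array were well above background on all arrays of both treatments, and their summed signal, in multiples of each array's 75th percentile, was 2760 to 3010 with MGCD0103 and 2810 to 2930 with T247. Obox6, a homeobox gene of the early embryo, gave 9.39, 9.31 and 9.59 with MGCD0103 and 10.45, 10.42 and 10.45 with T247, both below the untreated 12.36, 13.63 and 13.75. Dppa2, an activator of 2-cell transcripts, was higher with MGCD0103 (10.29, 10.03 and 9.89 against 8.96, 9.03 and 9.13, LFC 1.03), as was Zfp750 (LFC 1.13). A second probe of Dppa2 gave 0.45.

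Candidate factors of genome activation had a median LFC of 0.40 over 33 genes, or 0.16 above that of all genes. Of these 2 (6.06%) were lower DEGs and 0 higher, beside 2.71% and 3.36% of all genes. Gabpa, an ETS family transcription factor, gave 7.53, 7.60 and 7.68 with MGCD0103, 9.06, 8.68 and 8.61 with T247 and 10.83, 11.33 and 11.22 in untreated embryos, so the 3 groups did not overlap. Kdm5a, a demethylase of histone H3 lysines, had an LFC of -1.14. Nfya, a subunit of the CCAAT-binding factor, and Smarca4, the ATPase of the BAF complex, differed by less than the limit, with LFCs of 0.63 (adjusted p = 0.00577) and 0.53 (adjusted p = 0.000428). Of 28 pluripotency and lineage genes 0 were DEGs in limma, with 11 at an unadjusted p below 0.05, and the largest difference was in Klf2 (LFC -0.90).

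Genes for the HDACs themselves were not DEGs: 0 of 10 tested passed in limma, and 2 had an unadjusted p below 0.05. Hdac1, the leading deacetylase of preimplantation embryos, gave 12.35, 12.49 and 12.75 with MGCD0103, 13.29, 13.12 and 13.08 with T247 and 13.79, 14.82 and 14.64 in untreated embryos (LFC -0.63, adjusted p = 0.0261). Hdac4 gave 5.84, 5.22 and 5.77 against 4.94, 4.76 and 4.80 (LFC 0.78, adjusted p = 0.00217). Hdac2 had an LFC of 0.08 with a 95% interval of -0.41 to 0.57, and Hdac6 one of -0.17 with an interval of -0.43 to 0.09. Hdac3 was well above background on 1 of the 6 arrays, which gives no usable comparison, and Hdac11 did not pass the filter. Hdac7 stood far above control with either agent, at 8.04, 7.94 and 7.88 with MGCD0103 and 8.25, 8.16 and 7.87 with T247 against 5.53, 4.60 and 4.85, while the difference between the inhibitors was -0.14 with an interval of -0.57 to 0.29. Of 40 genes of HDAC corepressor complexes 1 (2.5%) was a higher DEG and 0 were lower, beside 3.36% and 2.71% of all genes. This DEG, Rbbp7, a histone-binding subunit shared by several complexes, gave 15.28, 14.93 and 14.85 against 13.76, 13.98 and 13.98 (LFC 1.11). A second probe of Rbbp7 gave 1.18. Of 23 acetyltransferases and acetyl-lysine readers, 1 (4.35%) was a lower DEG, Brd9 (LFC -1.04), and 0 were higher.

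Cell cycle lists held few DEGs. Of 89 chromosome segregation genes, 5 (5.62%) were higher with MGCD0103 and 0 lower, beside 3.36% and 2.71% of all genes, and after quantile normalization 3 were higher and 3 lower. Beside Kif11 these were Nusap1, a spindle microtubule protein (12.23, 11.59 and 11.49 against 10.33, 10.62 and 10.42, LFC 1.31), the kinetochore genes Cenpp (1.26) and Nuf2 (1.06), and Ect2 (1.13), which drives cytokinesis. Of 33 G2/M regulators 1 (3.03%) was higher and 0 lower, and after quantile normalization 0 were higher and 2 lower. The DEG was Ccnb1, cyclin B1, at 15.67, 15.43 and 15.20 against 13.78, 14.21 and 14.22 (LFC 1.36, adjusted p = 0.00678), with other probes at 0.78 and 0.82. Its call was lost with quantile normalization and with the mean of its probes. Cdk1, its kinase partner, gave an LFC of -0.86 (adjusted p = 0.0465) on its brightest probe and -1.77 and 0.78 on others, so its direction depends on the probe. Cdc25c, the phosphatase that activates that kinase, gave 7.54, 7.64 and 7.78 with MGCD0103, 8.58, 8.13 and 8.22 with T247 and 9.47, 9.91 and 9.96 in untreated embryos (LFC -0.65, adjusted p = 0.02).

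Of 65 DNA replication genes 2 (3.08%) were lower and 1 (1.54%) higher, beside 2.71% and 3.36% of all genes. Chtf18, which loads the replication clamp, gave 6.87, 6.73 and 7.09 against 8.93, 8.57 and 8.45 (LFC -1.75, adjusted p = 0.000209). Cdc6, which loads the replicative helicase, gave 7.17, 7.44 and 7.55 against 8.79, 8.44 and 8.48 (LFC -1.19, adjusted p = 0.000135), and both groups were below the untreated 8.85, 9.69 and 9.78. A second probe of Cdc6 gave -0.50. Lig1, the ligase that joins Okazaki fragments, was higher (11.46, 11.55 and 11.54 against 10.29, 10.47 and 10.41, LFC 1.13). Of 25 G1 cyclins and CDK inhibitors 2 (8%) were lower, Cdkn2c (LFC -1.21) and Cdkn2b (-1.44), and 0 were higher. However, Cdkn2b was well above background on 1 of the 3 MGCD0103 arrays and a second probe of it gave 0.45. Of 73 DNA repair genes 3 (4.11%) were higher, among them Rad52 (1.20) and Trp53bp1 (1.04), and 2 (2.74%) lower. The lower ones were Mlh3 (-1.59) and Fanca (-1.11), with Mlh3 well above background on 1 MGCD0103 array.

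Among 45 genes of the p53 pathway and apoptosis 3 (6.67%) were lower and 1 (2.22%) higher, beside 2.71% and 3.36% of all genes. Pidd1, a death-domain protein induced by p53, gave 7.18, 7.17 and 7.65 with MGCD0103 and 8.90, 8.75 and 8.70 with T247 (LFC -1.45, adjusted p = 0.0047). Pmaip1, the BH3-only protein Noxa, had an LFC of -1.32 and Bad, another BH3-only protein, one of -1.07, while Polk, a translesion polymerase, was higher (1.26). Gadd45g, a p53-related stress gene, was at 12.02, 12.12 and 12.27 with MGCD0103 and 12.32, 12.16 and 12.15 with T247, both above the untreated 10.67, 10.27 and 10.03. The inhibitors differed for Gadd45g by -0.08 with a 95% interval of -0.53 to 0.38. Of 44 genes of endoplasmic reticulum stress 2 (4.55%) were lower DEGs and 0 were higher. Ppp1r15b, a regulator of eIF2 dephosphorylation, gave 6.13, 6.03 and 6.08 against 7.88, 7.89 and 7.83 (LFC -1.78, limma adjusted p = 2.25e-05). Trib3, a pseudokinase of the same response, had an LFC of -1.32. Of 42 heat shock and chaperone genes 0 were DEGs in limma, with 22 at an unadjusted p below 0.05, and Dnajb1, a co-chaperone, came closest (LFC 0.97).

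Spliceosome genes were higher for 8 of 103 (7.77%) and lower for 1 (0.971%), beside 3.36% and 2.71% of all genes. Their median LFC was 0.32, or 0.07 above that of all genes. After quantile normalization 4 were higher and 4 lower, and after 75th-percentile scaling 3 and 2. Lsm3 gave 10.70, 10.51 and 10.32 against 9.06, 9.35 and 9.32 (LFC 1.27), and Crnkl1 (1.29), Eftud2 (1.19), Snrnp27 (1.11), Sf3b3 (1.09), U2af2 (1.08), Hnrnpu (1.05) and Hnrnpa2b1 (1.05) were also higher. Snrnp35, of the minor spliceosome, was lower (-1.27; second probe -1.496). Proteasome genes were higher for 4 of 48 (8.33%), the standard subunits Psmd6 (1.07), Psmd2 (1.06), Psmb3 (1.06) and Psmd9 (1.05). The list was lower for 1 (2.08%), the immunoproteasome subunit Psmb10 already described. After quantile normalization 1 proteasome gene was higher and 2 lower, and after 75th-percentile scaling 0 and 1. Of 65 respiratory chain genes 2 (3.08%) were higher, Ndufa8 (1.06) and Ndufa10 (1.03), and 1 (1.54%) lower, Uqcrfs1 (-1.29). Of 54 histone genes 3 (5.56%) were higher, among them H1f10, a linker histone (1.24), and Macroh2a1. The third, H2ac6, was well above background on 1 of the 6 arrays. Of 33 DNA and histone methylation genes 1 (3.03%) was higher, Cbx5, heterochromatin protein 1 alpha (1.15), and 1 (3.03%) lower, Kdm5a.

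Of 332 genes with Zfp symbols, 14 (4.22%) were higher and 15 (4.52%) lower, beside 3.36% and 2.71% of all genes. Their median LFC was 0.22, close to that of all genes. After quantile normalization 5 were higher and 23 lower, and after 75th-percentile scaling 3 and 19. Zfp418 was well above background on all 3 MGCD0103 arrays and on 0 T247 arrays and was at least 2.21-fold higher (adjusted p = 0.000413). Zfp369 had the reverse pattern and was at least 2.23-fold lower (adjusted p = 0.000225). Zfp1 gave 6.70, 7.10 and 7.47 against 8.76, 8.53 and 8.67 (LFC -1.56), and Zfp446 had an LFC of -1.44.

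Calls close to the limits depended on the scaling, on the background correction and on single arrays. Of 88 named genes that were called, 14 no longer passed with quantile normalization, 18 with 75th-percentile scaling and 14 with slide as a random block. With normexp background correction 43 of the 88 no longer passed, among them Klk1b3, Egr2, Kif11, Fam47e, Noto, Cdc6, Gabpa, Psmb10, Cdkn2c, Zfp369 and Zfp418. Rbbp7, Zfp750, Dppa2, Oas1d, Oas1e, Ect2, Lig1, Psmd2, Psmb3, Ndufa10 and H2ac6 were among those lost with both scalings, Zar1 with quantile normalization, and Polk, Rrp8, Psmd6, Ndufa8, Cbx5 and Cnot11 with the 75th percentile. Leaving out any 1 of the 6 arrays ended the call of Polk (LFC 1.18 to 1.36). Of the 6 omissions, 5 ended those of Fanca and H2ac6, 4 those of Kdm5a, Ndufa8, Obox6 and Zfp750, and 3 those of Bad, Bop1, Brd9, Crnkl1 and Dppa2.

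**Figure D4:**
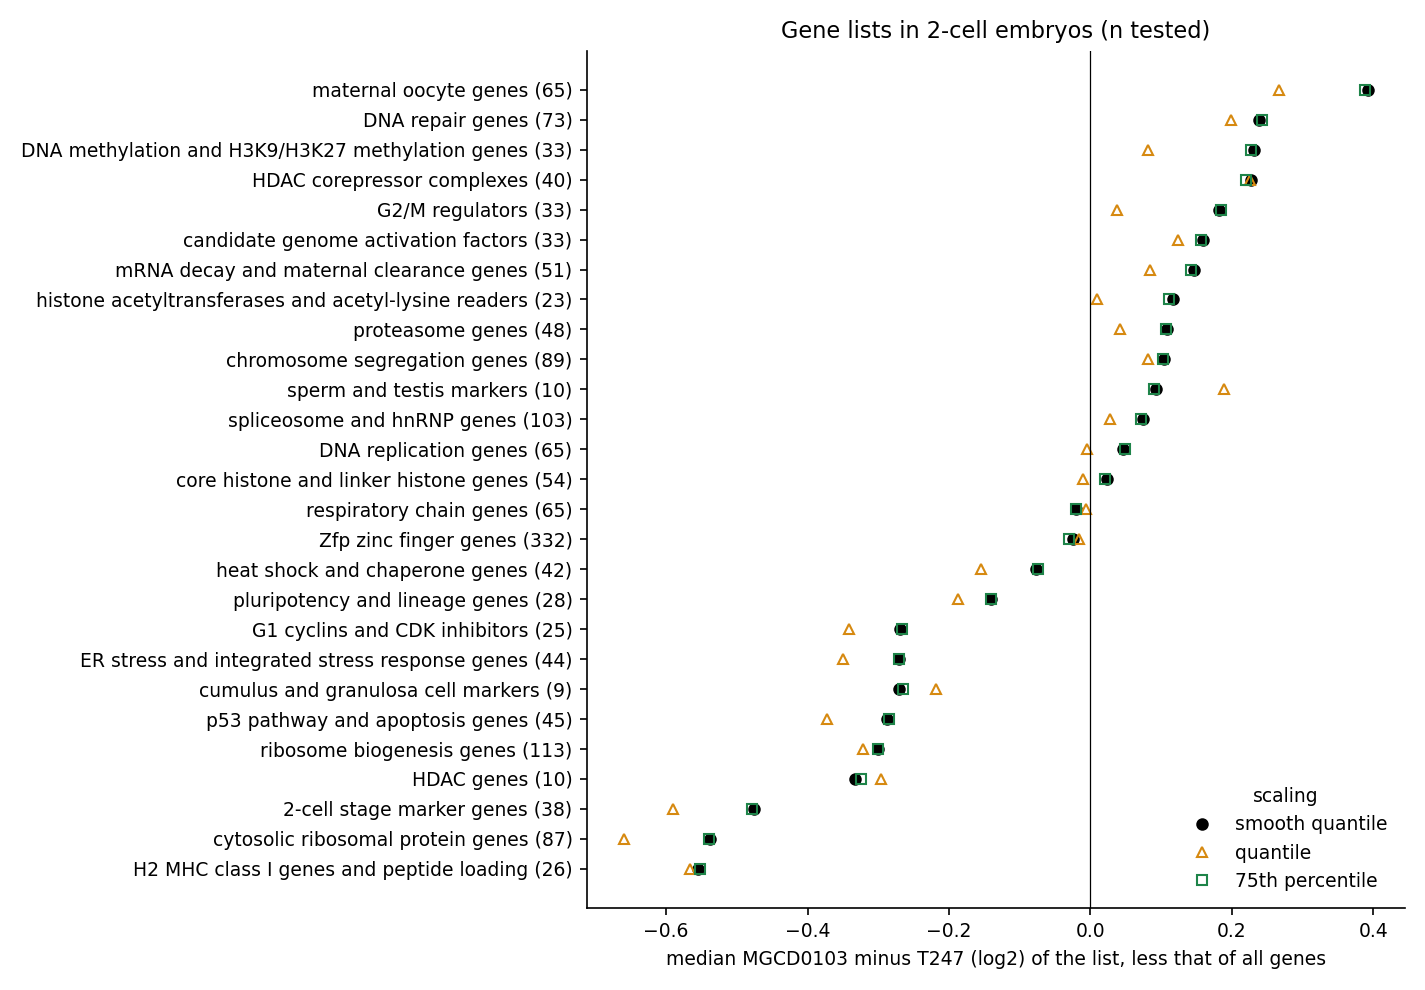
Median LFC (MGCD0103 minus T247, log2) of each gene list in 2-cell embryos less that of all genes tested, under the 3 scalings (number of genes tested in parentheses). Maternal oocyte genes lie 0.27 to 0.39 above all genes and cytosolic ribosomal protein genes 0.54 to 0.66 below under every scaling, while the DNA replication and histone lists lie within 0.05 of all genes and change sign with the scaling.

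Markers of cells that could have come with the embryos gave few usable values. Of 21 cumulus and granulosa cell markers on the array, 6 were well above background on all 3 MGCD0103 arrays and 9 on all 3 T247 arrays. Their summed signal was 46.7 to 48.5 with MGCD0103 and 39.8 to 42.1 with T247, in multiples of each array's 75th percentile, and 0 of the 9 tested were DEGs in limma, with 3 at an unadjusted p below 0.05. Of 15 sperm and testis markers, 6 and 7 were well above background on all 3 arrays, the sums were 23.7 to 24.8 and 15.8 to 16.4, and 0 of 10 tested were DEGs in limma, with 4 at an unadjusted p below 0.05. The part of other cells in the differences was not tested.

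For the genes the study discussed that are not covered above, the inhibitors were close or differed by less than the limit. Kdm5b, a demethylase of histone H3, gave 11.24, 11.33 and 11.54 with MGCD0103 and 12.45, 12.14 and 12.14 with T247 (LFC -0.88, adjusted p = 0.00162), both far below the untreated 13.52, 14.55 and 14.36. Stat3 and Tat had LFCs of 0.51 each (adjusted p = 0.0421 and 0.0149). Eif5a2 and Cd4 were above control with both inhibitors, and between them the LFC was 0.06 (95% interval -0.25 to 0.36) for Eif5a2 and -0.06 (-0.45 to 0.34) for Cd4. 1700063H04Rik had an LFC of -0.57 with an interval of -1.61 to 0.47, and Kdm4d did not pass the filter.

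Both inhibitors were also set beside untreated 2-cell embryos, in comparisons that share the untreated arrays. Of all genes 27.6% were DEGs with MGCD0103 and 24.8% with T247. Of the 432 lower DEGs, 297 were below control with MGCD0103 and 133 with T247, while 62 were above control with T247 and 10 with MGCD0103. Of the 534 higher DEGs, 132 were above control with MGCD0103 and 99 below control with T247, and 303 were called with neither inhibitor. The median LFC against control was -1.67 with MGCD0103 and -0.36 with T247 over the lower DEGs, and 0.62 and -0.56 over the higher DEGs. Over all genes tested it was 0.06 and -0.26. Both sets were chosen by the difference between the inhibitors, so the order of the inhibitors against the shared control follows from the choice. Without untreated replicate 1 the counts were 344 and 199 for the lower DEGs and 211 and 92 for the higher DEGs. That replicate was on the MGCD0103 side of the midpoint between the treatments for 645 (66.8%) of the 966 DEGs, against 231 (23.9%) for replicate 2 and 248 (25.7%) for replicate 3. For 390 DEGs replicate 1 was on the MGCD0103 side and both others on the T247 side, and for 17 the reverse.

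At the 1-cell stage the same inhibitors, 12 h earlier, differed in 44 genes (0.276%), 8 higher (0.0503%) and 36 lower (0.226%) with MGCD0103. Of the 44, 2 were also DEGs at the 2-cell stage, Nol11 and Pitpnm1, both lower at both stages. Pramel39, of a family expressed in early embryos, gave 6.17, 5.98 and 5.28 with MGCD0103 and 8.78, 8.80 and 8.82 with T247 at the 1-cell stage (LFC -2.99, adjusted p = 0.00278). At the 2-cell stage it gave 14.60, 14.52 and 14.71 against 14.68, 14.62 and 14.56, and the groups overlapped. Pramel37 (-2.75), Usp17la (-2.56), Usp17lc (-1.90), Mycs (-2.41) and Id2, an inhibitor of bHLH factors (-1.84), were also lower at the 1-cell stage. Mycs was well above background on 1 of the 6 arrays there. The Pramel and Usp17l genes have near-identical copies, so their signals may be shared. Polh, a translesion polymerase, was higher (1.17).

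The change of the difference from the 1-cell to the 2-cell stage was tested directly, and an offset between slides that is the same at both stages cancels in it. It was called for 460 genes (2.89%), 173 toward higher (1.09%) and 287 toward lower (1.8%) with MGCD0103. Of the 966 2-cell DEGs, 117 higher and 169 lower ones were among them, and 0 in the opposite direction. Itln1 changed by -5.27 (adjusted p = 0.0176) and Lrrc4b by -3.75 (adjusted p = 0.000373). Of the 12 largest higher genes Klk1b24, Fam47e and Noto passed, at 2.03, 1.48 and 1.46, but Klk1b24 was well above background on 0 T247 arrays at the 1-cell stage. Atp6ap1l, with a change of 3.29, and Gcnt2, with 2.27, did not pass (adjusted p = 0.0712 and 0.0638). The spread in that test is shared with untreated 2-cell arrays, whose SDs were 1.76 for Atp6ap1l and 1.82 for Gcnt2 on the 75th-percentile scale. Of the 287 genes that changed toward lower, 236 (82.2%) were among those that rose in untreated embryos and 8 (2.79%) among those that fell. Of the 173 that changed toward higher, 90 (52%) were among those that fell and 28 (16.2%) among those that rose. Over all genes tested 43.6% fell and 26.8% rose. Without MGCD0103 replicate 1 at the 2-cell stage 252 genes were called and without T247 replicate 1 there were 248.

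**Figure D5:**
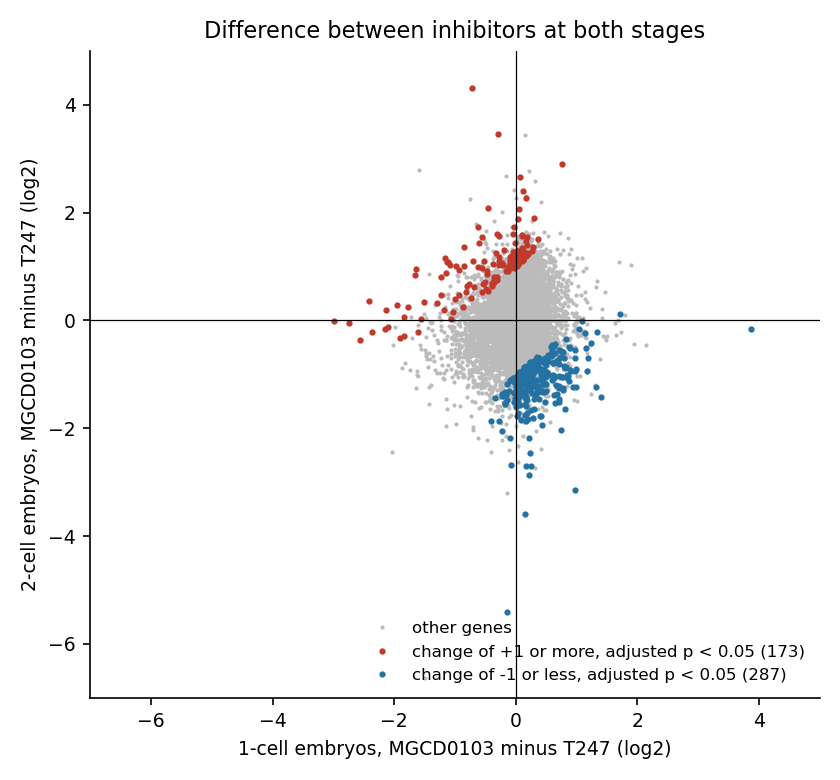
Difference between the inhibitors (MGCD0103 minus T247, log2) at the 1-cell stage (horizontal axis) and the 2-cell stage (vertical axis), with 1 point per gene and the 173 and 287 genes whose difference changed between the stages in colour. Most coloured points lie along the vertical axis, with 1-cell differences near 0, and a few lie to the left, where 1-cell signal was lower with MGCD0103.

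Some probes were measurable with 1 of the inhibitors only. Of 55681 probes, 103 (0.185%) were well above background on all 3 MGCD0103 arrays and on 0 T247 arrays, and 223 (0.4%) had the reverse pattern. Of the 103, 45 were well above background on all 3 untreated 1-cell arrays and 14 on all 3 untreated 4-cell arrays. Of the 223, 18 were so on the untreated 1-cell arrays and 116 on the untreated 4-cell arrays. Of all probes, 46.0 to 49.8% were well above background on any 1 untreated 1-cell array and 44.2 to 46.3% on any 1 untreated 4-cell array. The share of all probes that passed on all 3 arrays of a stage is not given. Folds for such probes are lower bounds, set against the higher of the dim probe and the lowest signal well above background on each array. Among named probes seen with T247, Piezo2, a mechanically gated ion channel, was at least 87.1-fold higher than with MGCD0103, and a further probe of Itln1 at least 43.4-fold. The olfactory receptor genes Olfr357 and Olfr1299 were at least 5.19-fold and 4.60-fold higher with T247, and Dagla, a lipase of endocannabinoid synthesis, at least 4.84-fold. Piezo2 was well above background on 1 of the 3 untreated 2-cell arrays. Among those seen with MGCD0103, Klk1b22, of the kallikrein cluster, was at least 3.92-fold higher than with T247, Platr26 at least 2.63-fold, AF366264 at least 2.62-fold, 4833417C18Rik at least 2.52-fold and Trim21 at least 2.51-fold. Klk1b22 was well above background on all 3 untreated 2-cell arrays and on 0 of the untreated 1-cell arrays. Another probe of Platr26 was well above background with T247 too. The counts moved when 1 array was left out, to between 121 and 296 for MGCD0103 and between 246 and 658 for T247, with the highest counts without T247 replicate 3 and without MGCD0103 replicate 3.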

How the data were processed

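RNA of 100 embryos per array was hybridized by the authors to 1-colour Agilent mouse arrays, and spots were extracted with Feature Extraction, version 9.5.1.1 in the submitters' notes. The deposited intensity values were background-subtracted per array by that software and not normalized between arrays. The log2 values deposited in the series matrix were filtered, filled in and smooth-quantile normalized by the authors, and served here as an alternative. Stage, treatment and replicate came from the labels.

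From the intensities, log2 values of the 24 arrays of the 8 conditions from 1-cell to 4-cell embryos were used as in the study's methods: probes positive and significant in every condition were kept (32766 of 55681), other signals filled in (2.75% of values) and smooth quantile normalization applied. The brightest probe stood for a gene, named through RefSeq tables (15914 genes). limma 3.58.1 in R 4.3.3 was fitted with 1 coefficient per condition and Benjamini-Hochberg adjustment over all genes, and a DEG had an adjusted p under 0.05 and a log2 fold change of 1 or more up or down. The fit was tested on simulated data. With 3 arrays per condition, the number of arrays limits the precision.

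Folds of probes not well above background with 1 treatment are lower bounds. Genes were named by a rule: the HDAC genes, the genes the study discusses, the 12 largest DEGs per direction measured on all 6 arrays without overlap, up to 4 per gene list, 5 probes per direction seen with 1 treatment, and the 5 largest changes between stages per direction. Members beyond that rule were named after their values were seen, and 1 gene that the rule names is not reported here. The members and lists were chosen with earlier results of these data known. Alternatives covered scaling, background correction, filters, fill-in, probe choice, slide, replicate block, array weights, call rule and omitted arrays. Those omitting an untreated or a 1-cell array, the scalings of the untreated course and a restriction to genes measured on all 6 arrays were added after seeing the data.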

Additional observations from a re-analysis of the deposited data

Results flagged for a closer look

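The difference between MGCD0103 and T247 changed from the 1-cell to the 2-cell stage for 460 genes by the test of the change itself (limma, adjusted p below 0.05, LFC of 1 or more up or down), 173 toward higher and 287 toward lower with MGCD0103. Each gene in this section is given with that change, the 2-cell LFC minus the 1-cell LFC.

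Differences at the 2-cell stage that arose after the 1-cell stage made up most of the named genes. Toward higher with MGCD0103 these were Klk1b24 (2.03), Zfp418 (1.61), Fam47e (1.48) and Noto (1.46), then the kinetochore and spindle genes Cenpp (1.29) and Nusap1 (1.19), Cnot3 of the deadenylase complex (1.20), Cbx5 of heterochromatin (1.18), Rad52 of DNA repair (1.16), Eftud2 of the spliceosome (1.11), Lig1 (1.07), Oas1d (1.05) and Rbbp7 (1.03). Zfp418 was well above background on 0 T247 arrays at the 2-cell stage and Klk1b24 on 0 T247 arrays at the 1-cell stage, so that end of their changes was not measured. Toward lower they were Itln1 (-5.27), Lrrc4b (-3.75), Olfr1299 (-3.08), the neuropeptide gene Pth2 (-2.69), Chtf18 (-1.90), Itpka (-1.81), Ppp1r15b (-1.80), Pidd1 (-1.75), Zfp1 (-1.72), Cdkn2c (-1.57), Psmb10 (-1.48), Rrp12 (-1.36), Nop2 (-1.27), Zfp446 (-1.11) and Cdc6 (-1.03). At the 1-cell stage Olfr1299, Pth2 and Itpka were well above background on 0 of the 6 arrays and Lrrc4b on 2 MGCD0103 arrays and 1 T247 array, and Olfr1299 was so on 0 MGCD0103 arrays at the 2-cell stage. The sizes of these changes rest on signals near background. The 2-cell LFC of Olfr1299 was -2.87, but it was -0.46 without MGCD0103 replicate 2.

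Differences of the 1-cell stage that were not present at the 2-cell stage gave the largest changes of another kind. Pramel39 (2.98), Mycs (2.77) and Pramel37 (2.70) were lower with MGCD0103 at the 1-cell stage and overlapped at the 2-cell stage, with Mycs well above background on 0 MGCD0103 arrays and 1 T247 array at the 1-cell stage. Psd4 (-4.03) was higher with MGCD0103 at the 1-cell stage, where 1 MGCD0103 array was well above background, and well above background on 0 of the 6 arrays at the 2-cell stage, so its change has no measured end.

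Weak signals lie behind another 3 genes. 9530047P18Rik (5.05) and Lsmem1 (3.75) were well above background on 1 of the 3 MGCD0103 arrays and 0 T247 arrays at the 2-cell stage. The 2-cell LFC of 9530047P18Rik was 4.32, but it was 0.11 without MGCD0103 replicate 2. That of Lsmem1 was 3.46 and ranged from 0.60 to 3.67 without 1 array. BC048562 (-4.11) was well above background on 0 MGCD0103 arrays and 1 T247 array.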

How the results depend on the processing

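Counts of DEGs depended on the setting more than their direction did. For all 2-cell DEGs, those higher and those lower with MGCD0103 (966, 534, 432), the counts were 280, 151 and 129 with normexp, 1478, 805 and 673 with detection on 1 array of either treatment, 489, 279 and 210 with series matrix values, 5571, 4271 and 1300 without a fold limit, and 8, 4 and 4 with the fold tested against 1 (treat). Higher and lower counts were 341 and 818 with quantile normalization. The higher count was 198 with the 75th percentile and 328 with only the 6 arrays. Without 1 array the counts were 645 to 1087, 355 to 734 and 269 to 550.

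The 44 genes of the 1-cell stage became 8 with normexp, 23 with detection on all 3 arrays, 90 without the untreated 2-cell arrays, 4 with series matrix values, 12 with slide as a random block (within-slide correlation 0.195), 187 with array weights (fitted without convergence), 69 without a fold limit and 0 with treat in limma (1479 at an unadjusted p below 0.05), and 24 to 34 without 1 array. The 460 changes became 731 with quantile normalization, 166 with normexp, 988 without the untreated 2-cell arrays, 295 with series matrix values, 1195 with array weights, 1220 without a fold limit, 4 with treat, and 248 to 475 without 1 array. With slide as a fixed block 579 changes were called.

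Of the lower DEGs 87.16% and 86.86%, and of the higher DEGs 64.52% and 56.57%, followed the untreated course with quantile and 75th-percentile scaling. Without untreated replicate 1, 211 higher DEGs were above control with MGCD0103. Probes seen with MGCD0103 alone numbered 163 with the positive and significant flag and 121 to 296 without 1 array, and those seen with T247 alone 246 to 658. Ggt6 turned to 0.53 with detection on all 3 arrays, which leaves its other probe, and BC048562 to 0.54 without T247 replicate 1 (range without 1 array -3.35 to 0.54). Over all alternatives 3737 gene values kept their side of the threshold, 148 newly passed it and 322 no longer did. Otherwise the cause of a move was not tested.

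Replicate numbers did not pair the arrays, since deviations of same-numbered arrays correlated at -0.07, 0.01 and -0.01. With replicate block 963 2-cell DEGs, 45 1-cell DEGs and 446 changes were called. The pairing changed no call of the named 2-cell DEGs, but Pidd1 (adjusted p = 0.0503) and Cnot3 (0.0538) lost the call of their change and Ggt6 gained it (0.0451). Weak signals limit genes not well above background on every array, 403 and 318 of the higher and lower DEGs being so on all 6.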

Other observations

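Probes without a gene name, which the report leaves out, also differed. Of 11335 such probes tested on their own, 329 were higher and 170 lower with MGCD0103 at the 2-cell stage, 4.40% in all, against 5.56% of 21431 named probes (667 higher, 524 lower; limma, same limits).

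The DEGs were spread over all autosomes and the X chromosome. The share of genes tested that were higher with MGCD0103 ranged from 2.38% on chromosome 3 (17 of 713) to 5.17% on chromosome 13 (31 of 600), against 3.36% of all genes. The share that were lower ranged from 0.73% on chromosome 14 (4 of 548) to 4.13% on chromosome 17 (34 of 823), against 2.71% of all genes. The 8 genes tested on the Y chromosome held 0 DEGs, and they are too few to set against the 6.07% of all genes.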
